A study of Mus musculus with 96 samples.

Results

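The genes described here encode the proteasome, and were taken as every protein-coding gene whose symbol is Psm followed by a letter from a to g and a number. The rule found 50 genes among the 39179 of the deposited tables, of which 21303 are protein-coding. They comprise 9 genes of the 19S base, 8 of the 19S lid, 7 of the 20S alpha ring, 7 of the 20S beta ring, 6 of the activators and inhibitor, 7 assembly chaperones and 5 of the immunoproteasome and tissue-specific core. The remaining gene, Psmc3ip, carries the symbol but encodes a meiotic recombination factor and no proteasome part. Another 3 matching symbols are pseudogenes and were left out, and 49 of the 50 genes passed the filter on low counts. Psmb11, the thymus-specific beta subunit, did not pass it.

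The proteasome is the main protease of cytosol and nucleus and degrades proteins tagged with ubiquitin. Its core particle is a barrel of stacked rings in which alpha subunits gate the entry and some beta subunits cut peptide bonds, and its cap binds ubiquitin, removes it and unfolds the substrate with a ring of ATPases. Neurons depend on it to clear misfolded proteins, and huntingtin with an expanded glutamine tract collects in ubiquitin-positive inclusions. The transcription factor Nfe2l1 is known to raise subunit genes together when the protease is inhibited, through antioxidant response elements in their promoters.

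Messenger RNA of the cerebellum was sequenced from C57BL/6 mice of 6 or 10 months in 96 libraries. The knock-in mice were heterozygous for an Htt allele with nominally 20, 50, 92 or 140 CAG (Q20, Q50, Q92, Q140), and so kept 1 wild-type allele. The wild types had shared cages with Q20 or with Q50 mice, and no wild types from cages of the longer alleles were analysed here, so a long repeat cannot be told apart from its cages and breeding. Each age held 6 groups of 8 libraries, 4 per sex. The labels do not state that each library came from its own animal, so the p-values measure the spread between libraries, which may be in part technical. Age moved together with the numbering of the libraries, and the pair cannot be told apart.

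Sequence upstream of the genes was searched for the core letters of the antioxidant response element, TGACNNNGC, and for CCAAT, on both strands and from 250 bases before to 50 after the RefSeq start (GRCm38.p6). Promoter entries were found for 42 of the 50 genes; Psma8, Psmb1, Psmb2, Psmb7, Psmc3, Psmd3, Psmd7 and Psmg2 had none. TGACNNNGC stood in at least 1 promoter of 6 of the 42 genes, or 14.3%, against 13.99% of all 27025 genes with an entry. CCAAT stood in 15 of the 42, or 35.7%, against 41.1% of all. In the 250 bases before the start alone, the shares were 11.9% of members and 11.5% of all for TGACNNNGC. The 6 genes were Psmb5, Psmb6, Psmc6, Psmd9, Psmd12 and Psme4. Of these, Psmb5, Psmb6 and Psmd9 are shown, as the 3 genes whose match lies wholly within the 50 bases before the start, each with the 150 bases before it and the matched letters in capitals; a match describes these letters and is no evidence of binding. They lie at chr14:54617996-54618145 on the minus strand (Psmb5), chr11:70525207-70525356 on the plus strand (Psmb6) and chr5:123228040-123228189 on the plus strand (Psmd9).
Psmb5: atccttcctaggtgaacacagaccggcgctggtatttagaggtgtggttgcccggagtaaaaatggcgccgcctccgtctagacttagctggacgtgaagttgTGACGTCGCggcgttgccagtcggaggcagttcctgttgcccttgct
Psmb6: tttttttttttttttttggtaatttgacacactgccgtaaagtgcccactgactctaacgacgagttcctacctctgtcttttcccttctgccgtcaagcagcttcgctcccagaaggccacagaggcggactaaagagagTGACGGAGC
Psmd9: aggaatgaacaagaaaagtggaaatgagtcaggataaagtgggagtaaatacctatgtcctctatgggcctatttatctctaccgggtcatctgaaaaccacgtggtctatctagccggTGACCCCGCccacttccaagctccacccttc
The match began 47 bases before the start in Psmb5, 9 in Psmb6 and 31 in Psmd9; that of Psme4, on the other strand, runs across the start. Psmb5 and Psmb6 encode catalytic beta subunits and Psmd9 an assembly chaperone of the base.

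Library totals ran from 29957797 to 39477325 estimated counts. All marker genes of granule neurons (8), Purkinje cells (7), oligodendrocytes (8), astrocytes (6), microglia (7) and endothelial cells (6) had a mean level of at least 1 FPKM, a fragment count scaled to transcript length and library size. Of 6 lymphocyte markers, 5 were under 0.1 FPKM. The 7 choroid plexus markers together ran from 12.4 to 3282 FPKM over the libraries. On the first principal component of all genes within an age, 11 of the 48 libraries at 6 months and 1 of the 48 at 10 months lay over 3 median absolute deviations from the median. At 6 months 4 of the 11 were Q20 libraries and 1 was a Q140 library, and at 10 months the library was female replicate 2 of Q92. These 12 libraries bear on many results below. Several of these results are therefore also given without them, and the rest with all libraries only. Htt ranged from 22.7 to 27.0 FPKM over the 12 group means. Its level does not report the repeat length and so checks no label. It was 0.22 lower on the log2 scale in Q140 than in Q20 at 10 months, with an adjusted p of 0.117 in edgeR.

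The genes of the constitutive particle were highly and evenly expressed. Psmc5, an ATPase of the base, had the highest level with a mean of 105 FPKM and a range of 92.3 to 167 FPKM over the 96 libraries. It was followed by Psmb6, a catalytic beta subunit, at 86.4 FPKM and by Psma7 of the alpha ring at 74.7 FPKM. Psmc5 stood above Psmb6, and Psmb6 above Psma7, in all 96 libraries. From Psma7 through Psmd2, Psmb7, Psmb1, Psmb4 and on to Psma4, neighbours in the order differed by less than 1 SD of their paired difference, so their order is not resolved. The lowest level among the 31 constitutive subunits was that of Psmd11, a lid scaffold gene, at 31.1 FPKM. Median levels per class were 70.4 FPKM for the beta ring, 60.6 for the alpha ring, 58.4 for the base and 38.7 for the lid. These are RNA levels of a whole tissue, in which fewer cells of a type and less RNA per cell cannot be told apart.

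Most genes around the particle were lower. Psme3, the nuclear activator subunit, had a mean of 35.3 FPKM, within the range of the subunits, Psme2 21.2 and Psme1 12.5, the last of these forming the interferon-inducible activator ring together. Psme4, a single-chain activator, was at 18.4 FPKM and the inhibitor Psmf1 at 14.5. Among the assembly chaperones the base chaperone Psmd5 led with 19.5 FPKM, and Psmg4, which helps to build the alpha ring, was lowest with 5.66 FPKM. The immunoproteasome subunits replace the catalytic beta subunits in immune cells and after interferon. Psmb10 had 7.08 FPKM, Psmb8 2.07 and Psmb9 0.837, against 71.1, 53.5 and 86.4 FPKM for Psmb7, Psmb5 and Psmb6, the subunits they replace. The testis-specific alpha subunit Psma8 was at 0.156 FPKM, and Psmb11 at 0.00959 FPKM with a listed 0 in 29 of 96 libraries. Psme2b, a gene close to Psme2 in sequence, was at 0.517 FPKM.

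**Figure D1:**
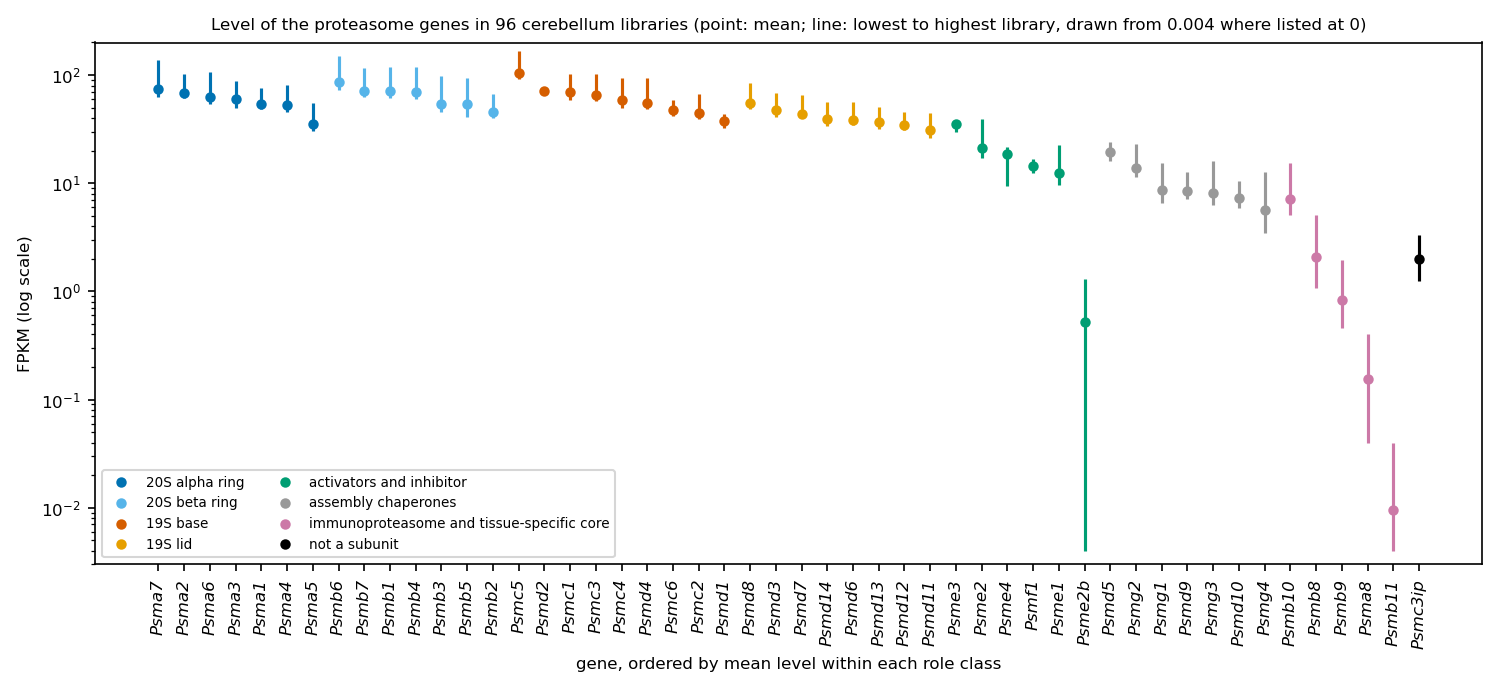
Level of each proteasome gene in FPKM on a log scale, grouped and coloured by role, with the mean as a point and the lowest to highest of 96 libraries as a line (0 drawn at 0.004). The constitutive subunits lie between 31.1 and 105 FPKM, and Psmb11, at 0.00959 FPKM, lies lowest.

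Some levels share reads with other genes and are uncertain. Of the 50-base words in the exons of Psme2b, 69.3% also occur in another annotated gene, and the share was 54.1% for Psmb5, 50.0% for Psma5, 28.3% for Psme2, 25.0% for Psmd9 and 17.8% for Psmd2 and for Psmb3. Since strand use in counting was not stated, overlapping genes cannot be told apart either; Psmb8 shares words with Gm20496, Psmb9 with Tap1, Psmb7 with Nek6 and Psmc3ip with Mlx.

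The spread across libraries differed between roles. The coefficient of variation over 96 libraries was 11.3% to 15.6% in the beta ring, 8.45% to 14.7% in the alpha ring, 6.71% to 10.1% in the lid and 3.49% to 13.3% in the base. The steadiest gene was Psmd2, the large scaffold subunit of the base, at 3.49%, and Psme3 had 4.52%. Core and cap genes varied together between libraries. After group and sex means were removed, the mean log2 CPM (counts scaled to library size) of the 14 core genes and that of the 17 cap genes correlated with r = 0.98 and rho = 0.92 over the 48 libraries at 6 months, and with r = 0.90 and rho = 0.80 at 10 months. Without the 2 libraries farthest from the median, r was 0.95 and 0.83, and without those that stood apart it was 0.93 over 37 libraries and 0.82 over 47. The points share library, depth and total RNA, so this is a description of the libraries.

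The same axis held genes outside the proteasome. Nuclear genes of the respiratory chain correlated with the core mean at r = 0.98 and ribosomal protein genes at r = 0.97 at 6 months, and at r = 0.91 and 0.92 at 10 months. Their rho was 0.96 and 0.94 at 6 months and 0.72 and 0.72 at 10 months, and without the 2 farthest libraries r was 0.96 and 0.95, and 0.79 and 0.81. Assembly chaperones followed at r = 0.96 and 0.78, immunoproteasome genes at r = 0.47 and 0.61, and activators and inhibitor at r = -0.18 and 0.43. The share of mitochondrial counts had r = 0.70 and 0.88, the microglial list r = 0.70 and 0.78 and the granule neuron list r = -0.65 and -0.83. Without the libraries that stood apart these were 0.32 and 0.75, 0.57 and 0.60, and -0.22 and -0.66, and the immunoproteasome genes had 0.19 and 0.34. At 6 months 7 of the 49 genes ran against the core mean, with r from -0.70 to -0.35. They were Psme4, Psmd1, Psme3, Psme2b, Psmd11, Psmd5 and Psma8. Their median transcript length, as implied by counts and FPKM, was 2343 bases against 1265 bases for the other 42. At 10 months Psme4 (r = -0.80) and Psmd11 (-0.19) stayed negative, while the rest of these 7 had r from 0.20 to 0.64. Psmd3 had r = 0.865 at 6 months and -0.12 at 10 months.

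The libraries that stood apart held the highest core levels. Their core mean at 6 months had a lowest value of 6.02, a median of 6.07 and a highest value of 6.54 on the log2 CPM scale. In the other 37 libraries these values were 5.80, 5.87 and 6.05. The ranges met only at their edges, where 1 of the 37 exceeded the lowest of the 11. Female replicate 2 of Q92 at 10 months had a core mean of 6.27, and 12.7% of its counts were mitochondrial, against a highest core mean of 6.06 in the other 47 libraries of that age.

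**Figure D2:**
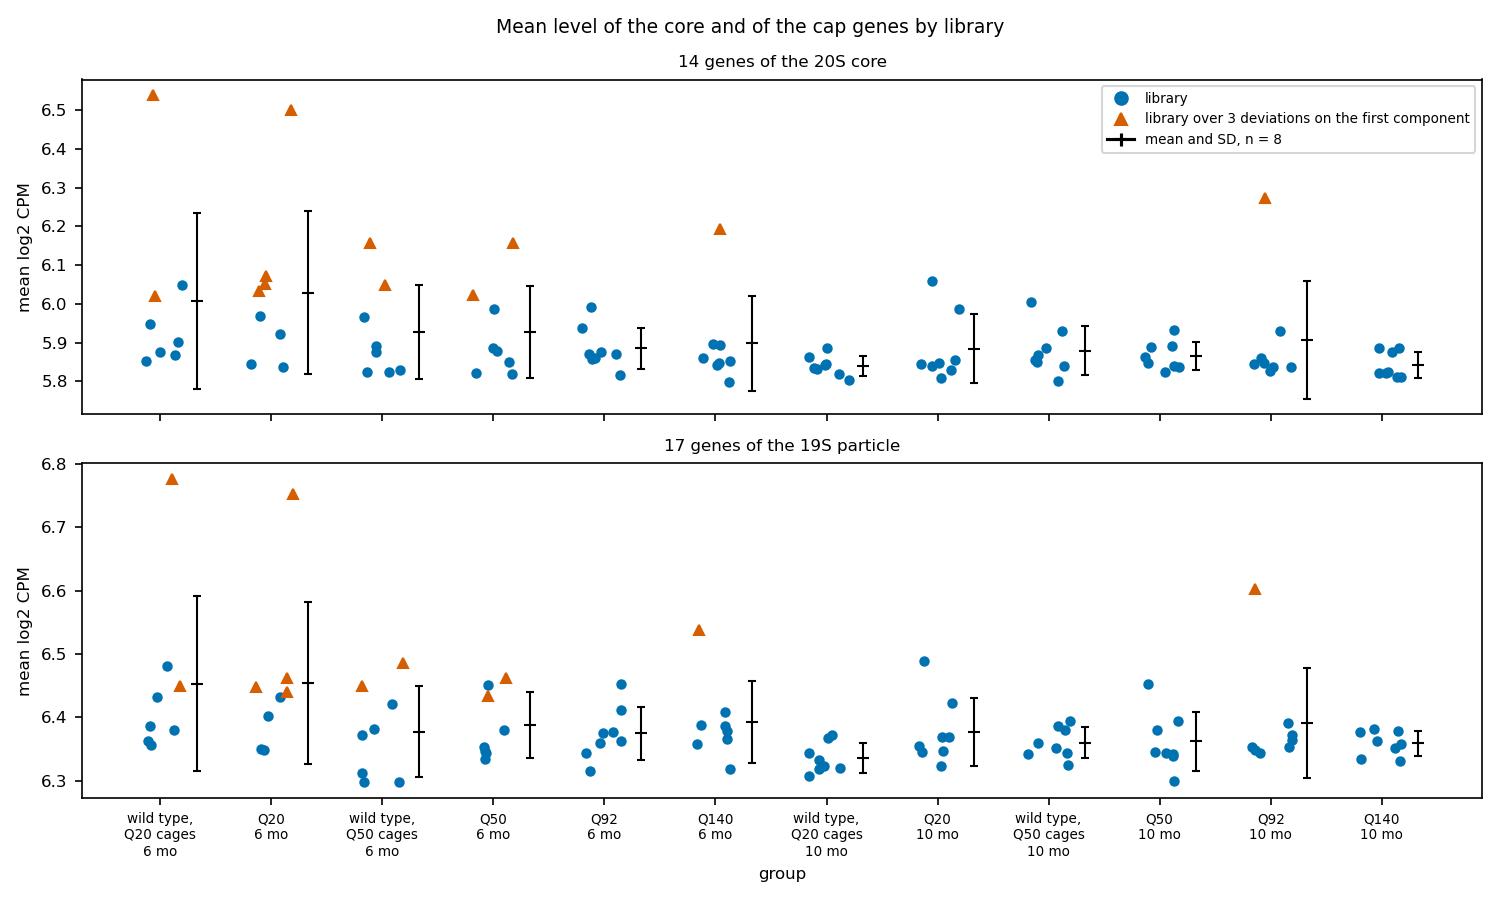
Mean log2 CPM of the 14 core genes (top) and of the 17 cap genes (bottom) in each library by group, with mean and SD of 8 libraries. Triangles mark libraries over 3 deviations on the first principal component; the highest core values at 6 months, up to 6.54, and at 10 months, 6.27, belong to such libraries.

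The comparison of Q140 with Q20 asks whether a long repeat goes with another level of proteasome RNA, with both groups heterozygous for a knock-in. At 6 months most proteasome genes were lower in Q140 by small amounts that did not pass the test. The median log2 fold change over the 49 genes was -0.11, against -0.01 over all genes, and 41 genes had a negative and 8 a positive value. None of the 49 was called at an adjusted p under 0.05 in edgeR, where 0.164% of all genes were called. At an unadjusted p under 0.05, 8 of the 49 passed in edgeR, or 16.3%, against 23.2% of all genes, and DESeq2 and limma called none either. In the beta ring all 7 genes were lower, with a median of -0.18, in the alpha ring all 7 with -0.10, in the base 6 of 9 with -0.09 and in the lid 7 of 8 with -0.06.

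Psmd4, the ubiquitin receptor of the base, had the smallest p of the 49. Its lowest, median and highest levels were 49.4, 52.9 and 68.7 FPKM in the 8 Q140 libraries, and 54.99, 62.1 and 88.8 FPKM in the 8 Q20 libraries. The groups overlapped, and 7 of 8 Q140 libraries lay below the Q20 mean (counted here and hereafter on the log2 CPM scale), with a log2 fold change of -0.21 (SE 0.08, n = 8 per group, adjusted p = 0.171 in edgeR). For Psmb6, the catalytic subunit of caspase-like activity, the levels were 73.3, 82.0 and 112 FPKM in Q140 and 80.3, 101 and 150 FPKM in Q20. The Q20 values reached higher at both ends, and the log2 fold change was -0.25 (SE 0.10, adjusted p = 0.175 in edgeR). Psmb4, a structural beta subunit, differed by -0.24 (adjusted p = 0.190), Psmb1 by -0.18 (0.210) and Psmb5, of chymotrypsin-like activity, by -0.21 (0.221), all in edgeR. In edgeR, Psmc5 of the base differed by -0.18 (adjusted p = 0.211), Psma1 by -0.10 (0.258), Psma2 by -0.11 (0.298), Psma7 by -0.14 (0.331), Psmd3 by -0.11 (0.236) and Psmd13 by -0.11 (0.279). None of these passed the test.

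A few genes had positive values. Psmd5, which holds ATPases of the base during assembly, had 18.4, 19.5 and 21.0 FPKM in Q140 and 17.2, 18.6 and 19.9 FPKM in Q20. On the log2 CPM scale all 8 Q140 libraries lay above the Q20 mean, while the groups overlapped, and the log2 fold change was 0.11 (SE 0.05, adjusted p = 0.189 in edgeR). In edgeR, Psmd1, the other large scaffold of the base, had a value of 0.09 (adjusted p = 0.212) with 7 of 8 libraries above the Q20 mean, Psmd11 of 0.06 (0.280) and Psme3 of 0.05 (0.432). Psme4 and Psmf1 differed by 0.00 and 0.01. Of the interferon-inducible genes in edgeR, Psme2 differed by -0.21 (adjusted p = 0.242), Psme1 by -0.11 (0.488), Psmb8 by -0.29 (0.254), Psmb10 by -0.26 (0.221) and Psmb9 by -0.16 (0.612). Psmg3 differed by -0.24 (0.229), Psmg2 by -0.15 (0.303), Psmb7 by -0.09 (0.476) and Psmc3ip by -0.24 (0.219). Across the 49 genes the log2 fold change correlated with the log2 of the implied transcript length at r = 0.70 and rho = 0.71, a description over genes that share libraries.

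The lower values were smaller in size without the libraries that stood apart, 4 of them in Q20 and 1 in Q140. Such libraries held higher core levels, so leaving out more of Q20 lowers that side by itself. Without the libraries over 3 deviations the median over the 49 genes was -0.03, and Psmd4 differed by -0.10 and Psmb6 by -0.11. With 2 surrogate variables as covariates the direction turned, to a median of 0.02 with 36 of the 49 genes higher. Without those over 4 deviations the median was -0.07 and Psmd4 alone of the 49 was called, at -0.15 with an adjusted p of 0.0457 in edgeR. In that fit 1131 of 17063 genes of the whole table were called, against 28 of 17120 with all libraries. Choroid plexus RNA differed as well. Its 7 markers summed to 15.7 to 1660 FPKM in Q20, with a median of 707.7, and to 14.02 to 306 FPKM in Q140, with a median of 18.2. After group and sex means were removed, the choroid plexus list and the core mean had r = 0.07 and rho = 0.10 at 6 months. Without the libraries that stood apart r was -0.15. The part of these libraries and of choroid plexus RNA in the differences was not tested. The 95% intervals had a median half-width of 0.16, and for 43 of the 49 genes they lay within 0.5 of 0 on both sides.

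In Q92 against Q20 at 6 months the values were alike in size, with a median of -0.12 and 42 genes lower. None of the 49 was called in edgeR, against 0.0117% of all genes; 15 passed at an unadjusted p under 0.05, or 30.6% against 24.7% of all genes, and DESeq2 and limma called none. Both comparisons share the 8 Q20 libraries, so their likeness adds no weight. Psmd4 differed by -0.22, Psmb6 by -0.27, Psmb4 by -0.28, Psmg1, a chaperone of the alpha ring, by -0.25 and Psme2 by -0.27, with adjusted p-values of 0.165 or 0.166 in edgeR. Without the libraries over 3 deviations the median was -0.02, and with surrogate variables it turned to 0.03 with 36 genes higher.

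Against the 16 wild types of that age, Q140 had a median of -0.05 with 39 genes lower. None of the 49 was called, against 0.234% of all genes, and none passed at an unadjusted p under 0.05 in edgeR, against 9.65%. The smallest p was that of Psmb10, at -0.21 (adjusted p = 0.586 in edgeR). The median was -0.02 without the libraries over 3 deviations, 0.00 when the L number of the library names entered the fit, and 0.02, with 38 genes higher, with surrogate variables. Over the 32 knock-in libraries, the slope per 100 CAG had a median of -0.08, with 41 genes negative. None was called, against 0.406% of all genes, 13 passed at an unadjusted p under 0.05 in edgeR, or 26.5% against 27.4% of all genes, and the smallest adjusted p was 0.126, for Psmd4 and Psmb6. Leaving out female replicate 4 of Q140, a library that stood apart, brought 16 calls, 15 of them lower, while 4048 genes of the whole table were called in that fit. Without all libraries over 3 deviations the median was -0.02 and 0 genes passed at an unadjusted p under 0.05 in edgeR, and with surrogate variables it was 0.01 with 38 genes positive. Q50 and Q20 against the wild types of their own cages had medians of -0.00 and 0.01, with none called in edgeR against 0.0117% of all genes in each. At an unadjusted p under 0.05, 0 and 1 of the 49 passed in edgeR, against 1.0% and 6.4% of all genes. The gene that passed was Psmd1, at -0.12 in Q20 (adjusted p = 0.645 in edgeR). Without male replicate 4 of the wild types of Q20 cages the Q20 median was 0.11.

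At 10 months, where 1 library stood apart and none in Q140 or Q20, the Q140 to Q20 differences were smaller. The median over the 49 genes was -0.02 against -0.00 over all genes, with 36 genes lower. The direction differed between the sexes, with a median of 0.03 and 31 genes higher in females alone and of -0.06 and 39 genes lower in males alone, a difference that was not tested. None was called in edgeR, against 1.99% of all genes, and DESeq2 and limma called none. At an unadjusted p under 0.05, 1 passed in edgeR, or 2.04%, against 13.8% of all genes. That gene was Psmc4, an ATPase of the base. It had 54.0, 55.01 and 56.3 FPKM in the 8 Q140 libraries and 54.5, 56.5 and 67.8 FPKM in the 8 Q20 libraries. All Q140 libraries lay below the Q20 mean of 58.6 FPKM, which lay above the Q20 median, and the groups overlapped. The log2 fold change was -0.10 (SE 0.03, n = 8 per group, adjusted p = 0.124 in edgeR). When the Q92 library that stood apart was left out of the shared fit it was -0.10 with an adjusted p of 0.0296 in edgeR. The share of all genes called without that library is not given. The Q140 levels of Psmc4 were close to the 52.2, 54.9 and 56.2 FPKM of the wild types from Q20 cages.

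Psme1, the alpha subunit of the interferon-inducible activator, had a positive value. Its levels were 11.8, 13.1 and 14.1 FPKM in Q140 and 10.6, 11.4 and 12.1 FPKM in Q20, so that the groups overlapped only slightly and all 8 Q140 libraries lay above the Q20 mean. The log2 fold change was 0.18 (SE 0.10, adjusted p = 0.391 in edgeR). The SE comes from a spread shared by all 48 libraries of the age, among them the Q92 library that stood apart with 22.6 FPKM. Without that library the value was 0.18 with an adjusted p of 0.101, and with 2 surrogate variables it was 0.18 with an adjusted p of 0.0126; under the other settings tried on all libraries or on single sexes it was 0.276 to 1. Against all wild types the difference of Psme1 was 0.09 (adjusted p = 1 in edgeR). Its partner Psme2 differed by 0.05 from Q20 (adjusted p = 0.806), Psmb8 by -0.02, Psmb9 by 0.26 (0.556) and Psmb10 by -0.16 (0.600), so the values of the interferon-inducible genes had no common sign.

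Psmb5 had 47.5, 50.3 and 51.7 FPKM in Q140 and 49.6, 53.1 and 61.0 FPKM in Q20. Every Q140 library lay below the Q20 mean, and the log2 fold change was -0.11 (SE 0.06, adjusted p = 0.370 in edgeR). Psmc5 differed by -0.10 (adjusted p = 0.471), Psmb4 by -0.09 (0.416), Psmb1 by -0.07 (0.626), Psma7 by -0.05 (0.572), Psmg2 by -0.07 (0.663) and Psme4 by -0.07 (0.683). Psmd1 had 37.1, 38.7 and 40.4 FPKM in Q140 and 34.04, 37.3 and 38.5 FPKM in Q20, with all Q140 libraries above the Q20 mean and a log2 fold change of 0.06 (adjusted p = 0.400 in edgeR). The lid genes differed by small amounts, with Psmd3 at -0.05 (adjusted p = 0.525 in edgeR), Psmd6 at -0.03 (0.730) and Psmd12 at -0.03 (0.837). In the alpha ring Psma1 differed by -0.04 (adjusted p = 0.580 in edgeR) and Psma5 by -0.05 (0.695). The chaperones Psmd9 and Psmg3 had values of -0.04 and 0.05, Psma8 of 0.25 and Psmc3ip of 0.05, with adjusted p-values of 0.778 to 0.882 in edgeR. The intervals were narrower than at 6 months, with a median half-width of 0.10.

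The Q92 to Q20 differences at 10 months had a median of 0.03, with 36 genes higher and none called, against 0.2% of all genes in edgeR. At an unadjusted p under 0.05, 7 passed in edgeR, or 14.3%, against 16.1% of all genes. Psmd3, a lid scaffold, had 41.5, 44.6 and 46.1 FPKM in Q92 against 45.5, 47.1 and 52.2 FPKM in Q20. All Q92 libraries lay below the Q20 mean, at -0.09 (SE 0.03, adjusted p = 0.136 in edgeR). The interferon-inducible genes had positive values, of 0.24 for Psme1, 0.15 for Psme2, 0.35 for Psmb8 and 0.41 for Psmb9, with adjusted p-values of 0.202 to 0.251. Without female replicate 2 these were 0.09, 0.07, 0.18 and 0.23, and the median over the 49 genes was -0.02. In that library the 10 interferon response genes summed to 105 FPKM and the microglial list to 109 FPKM, against at most 75.8 and 83.2 FPKM in the other 47 libraries of the age. Further lists lay outside the range of those 47 as well. Granule neuron markers summed to 718 FPKM (at least 1125 in the others), astrocyte markers to 1202 (at most 1031), endothelial markers to 144 (at most 103) and Purkinje markers to 3201 (at most 3077). Oligodendrocyte, choroid plexus and lymphocyte sums lay within that range.

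In the other comparisons at 10 months none of the 49 genes was called in edgeR either, and DESeq2 and limma called no member in any comparison within an age or in the change between ages. Q20 against wild types of Q20 cages had 40 genes higher and a median of 0.04, with 8 at an unadjusted p under 0.05, or 16.3% against 8.82% of all genes, where 0.0117% of all genes were called. The median was -0.00 in females alone and 0.09 in males alone. Psmc4 had the smallest p there, at 0.09 (SE 0.03, adjusted p = 0.478 in edgeR), with all 8 Q20 libraries above the mean of the wild types. Q50 against wild types of its cages had a median of -0.01 (0.0529% of all genes called), Q140 against all wild types of -0.00 (0.452%) and the slope over CAG length of -0.01 (1.16%). Of the 49 genes, 0, 0 and 1 passed at an unadjusted p under 0.05 in these, against 4.80%, 6.26% and 11.2% of all genes in edgeR.

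**Figure D3:**
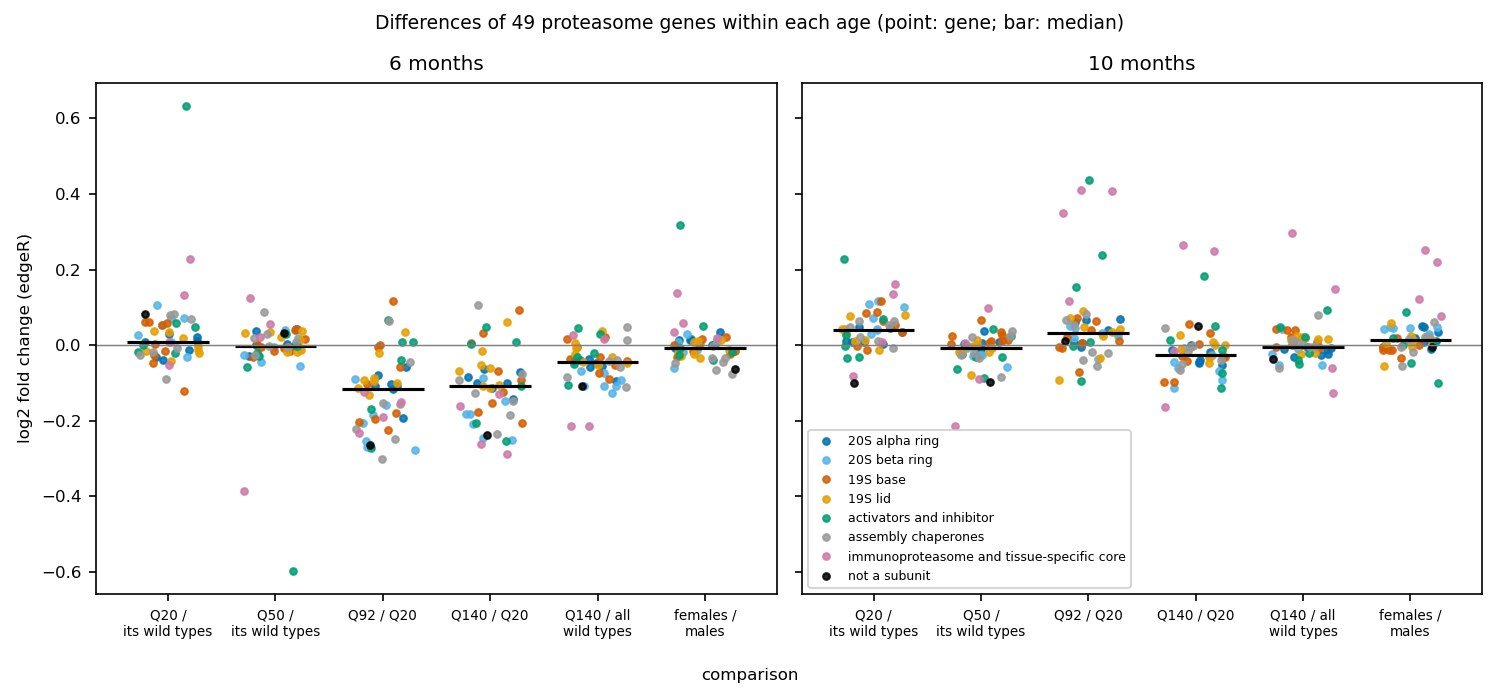
Log2 fold change of each of 49 proteasome genes in 6 comparisons at each age, coloured by role, with the median as a bar. Values lie mostly below 0 in Q92 and Q140 against Q20 at 6 months, with medians of -0.12 and -0.11, and closer to 0 at 10 months; none passed the test.

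The change of the Q140 to Q20 difference between the ages had a median of 0.08, with 42 genes positive. In edgeR none of the 49 genes and 0% of all genes were called; 3 of the 49 and 897 of all genes passed at an unadjusted p under 0.05. The 3 were Psme1 at 0.29, Psmg3 at 0.28 and Psmb6 at 0.23, each with an adjusted p of 0.791 in edgeR. Without the libraries over 3 deviations the median was -0.00, and with surrogate variables it was -0.03 with 35 genes negative.

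Females and males were compared at each age. At 6 months the median was -0.01. No member was called or passed at an unadjusted p under 0.05 in edgeR, against 0.876% and 9.91% of all genes. At 10 months no member was called, against 5.87% of all genes. Against 25.6% of all genes, 4 members, or 8.16%, passed at an unadjusted p under 0.05 in edgeR. They were Psme3 at -0.05 in females (adjusted p = 0.0841), Psme4 at -0.10 (0.0984), Psmb9 at 0.25 (0.127) and Psmd8, of the lid, at 0.06 (0.162). With surrogate variables 10 members were called, all lower in females, and 45 of the 49 values were negative, against 17 of 49 without them. The share of all genes called in that fit is not given. Without the Q92 library that stood apart Psme3 was called, at -0.05 with an adjusted p of 0.0477 in edgeR. In that fit 1143 of 17082 genes of the whole table were called.

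Between 6 and 10 months 26 of the 49 genes were called in edgeR, or 53.1%, against 41.3% of all genes. Of the 26, 22 fell and 4 rose, where 21% of all genes fell and 20.4% rose. The median over the 49 was -0.06 on the log2 scale, against 0.00 over all genes, and single values ran from -0.15 to 0.48. In the beta ring 6 of 7 genes fell, in the alpha ring 5 of 7, in the base 5 of 9, in the lid 3 of 8 and among the chaperones 3 of 7. Psma7 of the alpha ring fell most, from a lowest, median and highest level of 65.9, 74.8 and 136 FPKM in the 48 libraries at 6 months to 62.2, 69.4 and 82.4 FPKM in the 48 at 10 months. Its log2 fold change was -0.15 (SE 0.03, adjusted p = 3.44e-05 in edgeR), and the ages overlapped widely. Psma4 fell by 0.11 (adjusted p = 0.000192), Psma1 by 0.09 (9.45e-05), Psmd7, of the lid, by 0.08 (0.000342), Psmc2 by 0.08 (0.00221), Psmd3 by 0.07 (0.0018), Psmb6 by 0.10 (0.00908), Psmb5 by 0.09 (0.0459) and Psmb7 by 0.07 (0.0348).

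The genes that rose were Psmb8, Psme2b, Psmd5 and Psmd2. Psmb8, the immunoproteasome counterpart of Psmb5, went from 1.06, 1.82 and 3.01 FPKM to 1.41, 2.20 and 5.13 FPKM, a log2 fold change of 0.26 (SE 0.06, adjusted p = 0.000723 in edgeR). Psmd5 rose by 0.07 (adjusted p = 0.000777), Psmd2 by 0.04 (0.00597) and Psme2b, which shares 69.3% of its words with other genes, by 0.48 (0.00601). Psmb9 and Psmb10 did not pass, at 0.02 and -0.04, nor did Psme1 at -0.00, Psme2 at -0.07, Psme3 at 0.01, Psme4 at -0.01 or Psmf1 at 0.01. Microglial markers summed to 54.2 to 95.1 FPKM at 6 months, with a median of 62.9, and to 61.1 to 109 FPKM at 10 months, with a median of 70.9. The interferon list had medians of 32.8 and 38.2 FPKM, and lymphocyte markers 0.487 and 0.488 FPKM. Their part in the rise of Psmb8 was not tested.

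**Figure D4:**
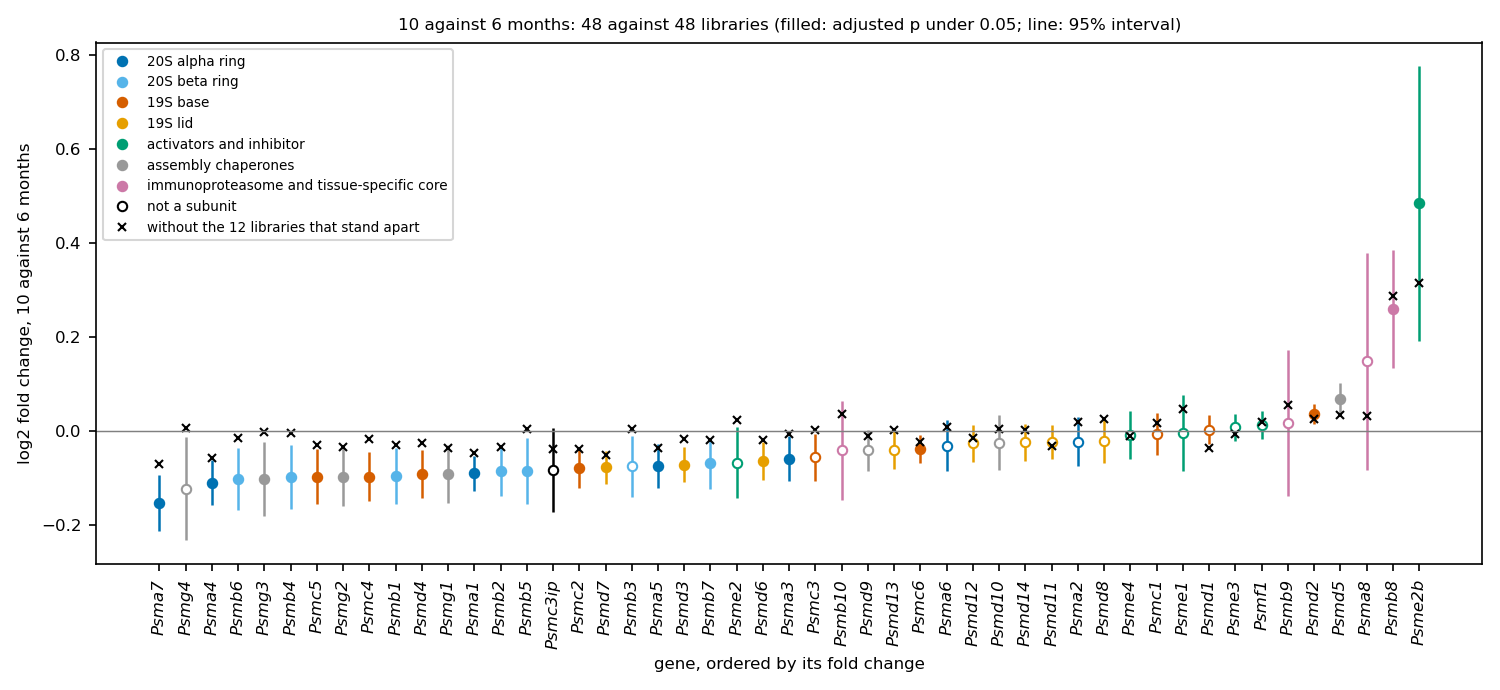
Log2 fold change of 49 proteasome genes between 48 libraries at 10 months and 48 at 6 months with 95% intervals, coloured by role and filled where called. Crosses give the value without the 12 libraries that stood apart; most of the lower values then move towards 0, while Psmb8 stays above it.

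Fewer genes were called as lower without the libraries that stood apart, 11 of which were of the younger age. These 11 were picked on a component of the same counts and held higher core levels, with a median of 6.07 against 5.87 log2 CPM. Leaving them out therefore lowers the 6-month side by itself, and the cause of the fall was not tested. Without those over 3 deviations 7 of the 49 genes were called, 5 lower (Psma1, Psma4, Psma7, Psmd1 and Psmd7) and 2 higher (Psmb8 and Psmd2); 6 of the 7 are among the 26. Without those over 4 deviations 14 were called, all among the 26. With surrogate variables 8 were called, of which 7 rose, and 1 of the 8 is among the 26. The share of all genes called in these 3 fits is not given, so the counts cannot be set against it. Psmb8 was the gene in common and was called under these 3 settings and with all libraries. It was not called when replicate 2 of every group was left out, at 0.13 with an adjusted p of 0.121. Psma7 without the libraries over 3 deviations fell by 0.07.

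The share of the immunoproteasome subunit in each catalytic pair was computed from FPKM within a library, which cancels its depth. Psmb8 made up 3.06% to 3.51% of Psmb5 and Psmb8 together in the group means at 6 months and 3.66% to 4.81% at 10 months. All 6 group means were thus higher at 10 months, while single libraries overlapped between the ages. Psmb9 made up 0.812% to 1.10% of Psmb6 and Psmb9, and Psmb10 8.39% to 9.58% of Psmb7 and Psmb10, over the 12 group means. At 10 months the Psmb8 share was 4.01 ± 0.61% in Q140, 4.81 ± 0.79% in Q92, 3.86 ± 0.54% in Q20, 3.66 ± 0.55% in Q50, and 4.62 ± 0.95% and 4.22 ± 1.04% in the wild types of Q20 and Q50 cages (SD, n = 8 each). The shares did not order by CAG length.

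**Figure D5:**
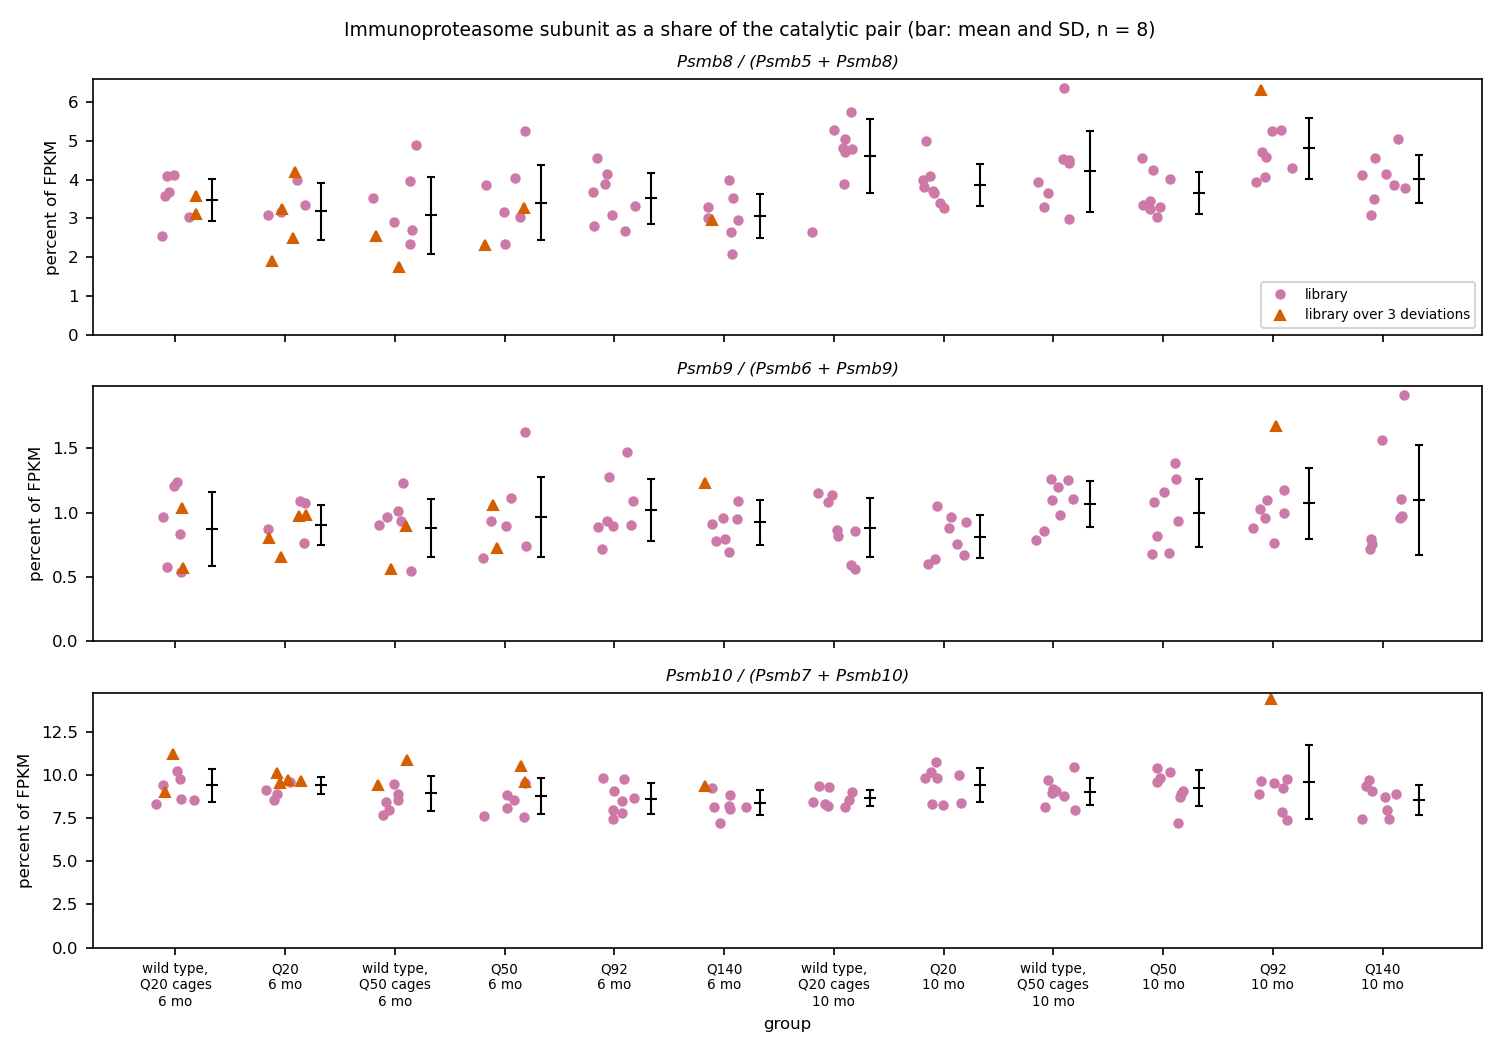
Share of Psmb8, Psmb9 and Psmb10 in the summed FPKM of their catalytic pair, by group, with mean and SD of 8 libraries; triangles mark libraries that stood apart. The Psmb8 share is higher in the group means at 10 months than at 6 months, and female replicate 2 of Q92 at 10 months has the highest Psmb10 share, 14.4%.

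Genes that act with the proteasome without carrying its symbol were taken as a list of 29 ubiquitin receptors, deubiquitinases, shuttle factors, assembly factors and regulators. Within an age none of the 29 was called in edgeR except in females against males at 6 months, where Fbxo7, a ubiquitin ligase adaptor that binds Psmf1, was higher by 0.10 (adjusted p = 0.0112) and Zfand5, a proteasome activator, by 0.10 (0.0319). Their median in Q140 against Q20 was 0.01 at 6 months and -0.01 at 10 months. Between the ages 7 rose and 8 fell, where 41.3% of all genes were called. Without the libraries over 3 deviations 5 rose and 2 fell, among them Ube3c, Ubqln2, Vcp and Sem1 but neither Nfe2l1 nor Adrm1. With all libraries the 6 with the smallest p were as follows. Ube3c, a ligase bound to the proteasome, rose by 0.14 (adjusted p = 5.89e-05 in edgeR), Nfe2l1 by 0.09 (0.000813), the shuttle factor Ubqln2 by 0.04 (0.00142) and the segregase Vcp by 0.04 (0.00221). Sem1, the smallest lid subunit, fell by 0.18 (adjusted p = 0.000109) and the ubiquitin receptor Adrm1 by 0.10 (0.00261). Nfe2l1 had group means of 54.0 to 60.3 FPKM and was not called in any comparison within an age.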

How the data were processed

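Messenger RNA of mouse cerebellum was sequenced in 96 libraries, 8 in each of 12 groups, 4 per sex. The tables of estimated counts per gene were deposited by the authors, and 81.64% of the values are whole numbers; they were rounded to whole numbers here. FPKM values were deposited by the authors in a second table. CASAVA 1.8.2 is named in the submitters' processing notes; for the aligner, counting tool, build, annotation and strand setting, nothing was given in the sources used here. Gene names and classes came from GENCODE M21 (GRCm38), and words of 50 bases shared with other genes were counted in its transcripts.

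Counts were tested with edgeR 4.0.16 in R 4.3.3 by its quasi-likelihood test, with TMM factors and its default filter on low counts (minimum count 10, minimum total 15). Genes whose p, adjusted by Benjamini and Hochberg over the whole table, lay under 0.05 were called. Within an age the 48 libraries of 6 groups were fitted together with sex as a covariate (41 residual degrees of freedom). The slope per 100 CAG used 32 knock-in libraries (29), and the comparison across ages used 96 libraries (83). Intervals and standard errors came from the same tests. Library totals had a median of 34251076 counts, and their depth limits the genes near 0; intervals cover the spread between libraries only.

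The alternatives were RLE factors, no filter on low counts, DESeq2 1.42.0, limma 3.58.1 on log2 FPKM with a pseudocount of 1 or 0.1, the replicate number as a block, the L number in the library names as a covariate, 2 surrogate variables (sva 3.50.0), single sexes and each library left out. Leaving out libraries by their distance on the first principal component was chosen after seeing the data. The members and gene lists were chosen with earlier results of these data known. Replicate numbers were checked for pairing by correlating deviations from group means over 240 same-numbered pairs, with a median r of 0.016 (range -0.469 to 0.713), so they do not pair the libraries.

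Named are all members called where there were at most 8, otherwise those of smallest p, with 3 per role in Q140 against Q20, the catalytic pairs, the activators and inhibitor, and the highest and lowest level of a role. Other genes were chosen after their values were seen. Counts were simulated with 100 genes changed by 0.5 and 100 by 1 on the log2 scale. The test recovered 71% and 87% for Q140 against Q20 at 10 months (17026 genes), with 8 false calls. Across ages it recovered 91% and 100% (17384 genes), with 10 false calls. Each gene was drawn on its own, without the axis that the real libraries share, and no comparison within 6 months was simulated. Most differences of the members were smaller than 0.5, so these shares do not measure the power to detect them.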

Additional observations from a re-analysis of the deposited data

Results flagged for a closer look

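Single libraries lay apart from the other 7 of their group in 28 of the 120 groups of 8 examined, over 10 measures, where the gap to the nearest library exceeded the critical share of 0.526 of the range; chance gives about 1 in 20. The measures share genes and libraries, so these are not 28 separate events. In mean log2 CPM, male replicate 4 of the wild types of Q20 cages at 6 months was highest for the alpha ring (6.53), beta ring (6.55), base (7.08), lid (6.44), assembly chaperones (4.15) and immunoproteasome and tissue-specific genes (1.29). Male replicate 4 of Q20 at 6 months was highest for the alpha ring (6.48), beta ring (6.53), base (7.07), lid (6.40) and chaperones (4.02). Female replicate 4 of Q140 at 6 months was highest for the alpha ring (6.22), beta ring (6.17), base (6.84), lid (6.20) and chaperones (3.78). Male replicate 3 of Q92 at 6 months was highest for the alpha ring (6.07) and lid (6.10), without lying over 3 deviations on the first principal component.

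Female replicate 2 of Q92 at 10 months was highest for the alpha ring (6.24), beta ring (6.30), base (6.95), lid (6.21), chaperones (3.83) and immunoproteasome and tissue-specific genes (1.997). It was also highest for the Psmb9 share of its catalytic pair (1.68%) and the Psmb10 share (14.4%). The Psmb8 share was highest in female replicate 2 of the wild types of Q50 cages at 10 months (6.36%), and the Psmb9 share in female replicate 4 of Q50 at 6 months (1.62%). What these libraries share was not tested.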

How the results depend on the processing

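Of the counts of members called, 509 stayed on their side of the threshold and 19 did not; of the values of single genes, 3574 stayed, 29 no longer passed, 21 newly passed, 9 moved and 9 turned sign with the value past the threshold on either side. Counting log2 fold changes of named genes that passed nowhere too, 324 of 3110 had another sign, among them 73 of the 230 with surrogate variables. With surrogate variables, 4 members were called in Q140 against Q20 at 10 months (Psmb4, Psmb5, Psmc4 and Psme1), 1 in Q92 against Q20 (Psmb4), 1 in the slope over CAG length (Psme1), 10 in females against males at 10 months and 8 across ages. In males alone, 2 were called in Q140 against Q20 at 10 months (Psmb5 and Psmc4) and 3 in Q20 against wild types (Psmb4, Psmb5 and Psmb6). Without the libraries over 3 deviations 1 was called in Q140 against Q20 at 10 months (Psmc4), 1 in females against males (Psme3) and 7 across ages; over 4 deviations, 1, 1 and 14, and 1 in Q140 against Q20 at 6 months (Psmd4). Leaving out 1 library gave 0 to 16 calls in the slope at 6 months and 0 to 1 in females against males at 10 months, where Psme3 was called without male replicate 4 of Q140 or female replicate 2 of Q92. Leaving out a replicate number of every group gave 13 to 30 calls across ages (15 without replicate 3 and 13 without replicate 4), while 4395 to 6943 genes of the whole table were called. Of the whole table, 1131 of 17063 genes were called in the fit that called Psmd4 at 6 months, and 4048 of 16796 in the slope with 16 calls. Where Psme3 was called, the counts were 1382 of 17101 without the Q140 library and 1143 of 17082 without the Q92 library. Shares of all genes are not given for the other settings named here, so their counts cannot be set against them. The cause was not tested.

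With surrogate variables the sign turned for Psme1 (-0.11) and Psme2 (-0.10) in females against males at 10 months, and across ages for Psmb5 (0.0336), Psmb6 (0.0244), Psmb7 (0.0214), Psmb10 (0.0942), Psme1 (0.0851) and Psme2 (0.069). Without the libraries over 3 deviations Psmb5 was at 0.0042 across ages. With the replicate block 25 members were called across ages, and no count of calls within an age changed; 75 of the 240 same-numbered pairs correlated over 0.1 and 51 under -0.1. The median of Q92 against Q20 at 10 months was 0.13 in females and -0.06 in males. Genes near 0, such as Psmb9, Psma8 and Psme2b, had the widest intervals.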
